A study of Caenorhabditis elegans with 12 samples.

Results

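The transthyretin-related (ttr) genes of Caenorhabditis elegans were described across 4 conditions of an RNA sequencing experiment on whole worms. Members were the genes whose WormBase symbol starts with ttr- and whose normalized value was at least 10 in 3 or more of the 12 libraries. Of 58 ttr symbols in the name table, 57 were listed in the values and 52 met this rule, among 12908 genes of any name that did. Beyond this minimum the rule used no measured value, but the members were chosen with earlier results of these data known.

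Wild-type N2 worms, labelled as adult, had been fed stt-3 RNAi or control RNAi bacteria until the L4 larval stage. They were then kept for 12 h either on PA14, a strain of Pseudomonas aeruginosa that kills worms, or on the corresponding RNAi bacteria, which are Escherichia coli. The groups were stt-3 RNAi on PA14, control RNAi on PA14, stt-3 RNAi on E. coli and control RNAi on E. coli, with 3 libraries each. All groups shared the N2 wild-type background, and no source used here says whether the replicates came from separate cultures, so that p values measure only the spread between these libraries.

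STT-3 is the catalytic subunit of the oligosaccharyl transferase, which attaches N-glycans to proteins that enter the endoplasmic reticulum, and proteins bound for secretion pass through it. The ttr genes form a large family of nematodes, and most of them encode small proteins with a signal peptide that resemble transthyretin, the carrier of thyroid hormone in vertebrate blood. The functions of most members are not known. TTR-52 is a secreted protein that bridges phosphatidylserine on the surface of dying cells and the engulfment receptor CED-1, TTR-11 also binds phosphatidylserine and acts in the repair of cut axons, and TTR-33 protects dopaminergic neurons from oxidative damage.

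The deposited values had been normalized by the authors (upper quartile, then removal of unwanted variation) and rounded to whole numbers, and they are not read counts. The upper quartile of the values was 161 to 164 in the 12 libraries and their sums were 5530614 to 8627187, so that these totals are not depths and the sequencing depth is unknown. The value of stt-3 was higher in all 6 libraries labelled stt-3 RNAi (461 to 551) than in all 6 control RNAi libraries (367 to 434). The libraries are therefore called the libraries labelled stt-3 RNAi below, and every direction drawn from them rests on that label. A different subunit of the same enzyme is encoded by ostd-1, whose value was 98 to 138 in the 6 labelled libraries and 624 to 823 in the 6 of control RNAi, with log2 changes of -2.35 on E. coli and -2.86 on PA14 (limma, BH-adjusted p = 1.40e-06 and 1.84e-07). Replicate 3 of the labelled E. coli libraries and replicate 2 of the control RNAi E. coli libraries lay farthest from the rest of their groups on the first principal component of all genes, at -38.2 and -106. The other labelled libraries on E. coli were at -74.1 and -89.8 and the other control RNAi libraries on E. coli at -78.7 and -65.6. Where the count of members called changed without both of these libraries, it is given beside the result.

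The 52 members lay on chromosomes I (1 gene), II (2), III (8), IV (10), V (19) and X (12) of WBcel235. Their exons spanned 460 to 1415 bases, with a median of 576 bases. The 5 listed genes that did not reach the minimum were ttr-28, ttr-52, ttr-55, ttr-57 and ttr-58, whose highest value in any library was 9. Of these, ttr-52 (WBGene00008719, chromosome III from 13404718 to 13405783) had values of 4, 3 and 7 in the labelled libraries on PA14 and of 5, 2 and 5 in control RNAi on PA14. On E. coli it had 0, 1 and 0 in the labelled libraries and 0, 0 and 0 in control RNAi. Its values were thus lower than 10 everywhere, higher on PA14 than on E. coli in every library, and no test was run on it.

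Levels differed widely within the family. Compared per length, as the normalized value per kb of exon, the mean over the 12 libraries was 7.89 for ttr-13, the lowest member, and 15169 for ttr-51, the highest, with a median of 267. By this measure 14 members were below 100, 22 lay between 100 and 1000, 12 between 1000 and 5000, and 4 above 5000. The 4 were ttr-51, ttr-15, ttr-2 and ttr-16. They held 61.1 to 61.9% of the summed values of the 52 members in the labelled libraries on PA14 and 58.9 to 59.8% in control RNAi on PA14. On E. coli they held 61.2 to 62.6% in the labelled libraries and 57.9 to 59.0% in control RNAi.

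**Figure D1:**
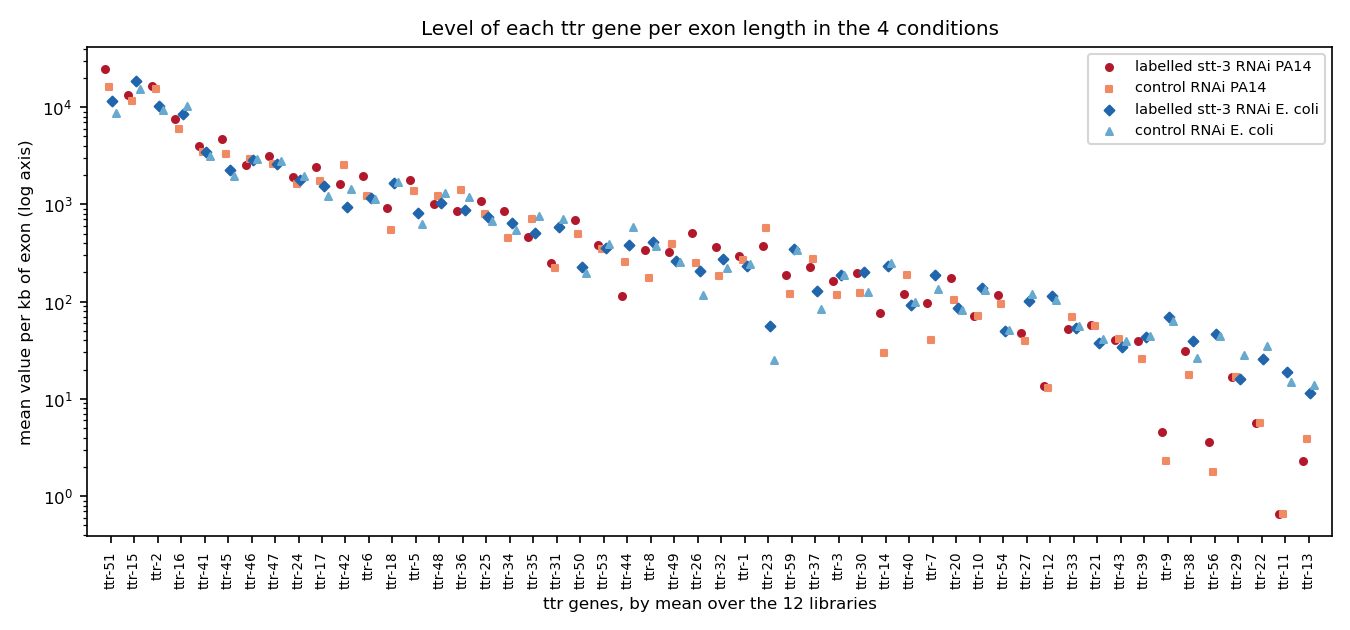
Mean normalized value per kb of exon (log axis) of the 52 ttr genes in the 4 conditions, each point the mean of 3 libraries, with genes ordered by their mean over the 12 libraries. Levels run between 15169 for ttr-51 and 7.89 for ttr-13, and the points of the 2 bacteria lie widely apart for ttr-9, ttr-56 and ttr-11. These genes reached the minimum value of 10 on E. coli alone, which favours such a gap. Other genes of low level, such as ttr-29 and ttr-43, had libraries that overlapped between the bacteria in both RNAi groups.

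The order at the top differed between bacteria. The gene ttr-51 (WBGene00010440, chromosome IV from 13250655 to 13252311) had values of 14629, 11009 and 9701 in the labelled libraries on PA14 and of 8799, 6873 and 7277 in control RNAi on PA14. On E. coli it had 4881, 4990 and 6911 in the labelled libraries and 3830, 4810 and 3845 in control RNAi. Every PA14 library with control RNAi was therefore above every E. coli library with control RNAi, and the same held among the labelled libraries.

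The value of ttr-15 (WBGene00011561, chromosome III from 10337847 to 10339440) was 9830, 7648 and 6958 in the labelled libraries on PA14 and 7848, 6353 and 6782 in control RNAi on PA14. On E. coli it was 12087, 12832 and 9248 in the labelled libraries and 8577, 11492 and 8005 in control RNAi. The groups of the 2 bacteria did not overlap in control RNAi, and overlapped in the labelled libraries.

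The value of ttr-2 (WBGene00010539, chromosome III from 9927769 to 9929004) was 9232, 7706 and 7434 in the labelled libraries on PA14 and 8670, 6263 and 7758 in control RNAi on PA14. On E. coli it was 5245, 4992 and 5069 in the labelled libraries and 4377, 5148 and 4259 in control RNAi. Every PA14 library was higher than every E. coli library. Per kb of exon, the mean level in control RNAi on PA14 was 15904 ± 2112 for ttr-51, 15249 ± 2450 for ttr-2 and 11485 ± 1264 for ttr-15 (SD, n = 3). In control RNAi on E. coli it was 8652 ± 1167 for ttr-51, 9263 ± 973 for ttr-2 and 15366 ± 3071 for ttr-15 (SD, n = 3). The levels of ttr-51 and ttr-2, adjacent in this order, differed by less than these spreads in either condition.

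The question of the next comparison was how the family responded to PA14 in worms on control RNAi. Of the 52 members, 5 rose and 14 fell by more than 2-fold with a Benjamini and Hochberg (BH)-adjusted p under 0.05 (limma), which is 9.62% and 26.9% of them. Over all 12908 genes tested, 10.7% rose and 15.9% fell. The median log2 change of the members was -0.10, with a range of -4.05 to 4.42, against a median of 0.04 for all genes. The genes that rose were ttr-23, ttr-37, ttr-50, ttr-5 and ttr-26. Those that fell were ttr-9, ttr-56, ttr-14, ttr-12, ttr-11, ttr-22, ttr-31, ttr-18, ttr-7, ttr-27, ttr-13, ttr-59, ttr-44 and ttr-8. Without the 2 E. coli libraries that lay apart, 7 rose, with ttr-40 and ttr-54 added, and 13 fell.

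The share that fell has to be read with the minimum value in mind. The genes ttr-9, ttr-11, ttr-13, ttr-22 and ttr-56 reached a value of 10 on E. coli alone, so that they could enter the family only by being higher there. Of all 865 genes that did so, 94% were called lower on PA14. Among the 47 members that reached 10 on both bacteria, 5 (10.6%) rose and 9 (19.1%) fell, and of the 11640 genes of any name that did, 9.43% rose and 10.6% fell. At any fold change, 12 members rose and 18 fell (limma, BH-adjusted p under 0.05), against 25.8% and 25.8% of all genes. All PA14 libraries were above all E. coli libraries for 13 members (30.5% of all genes) and below them for 19 (28.9% of all genes).

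**Figure D2:**
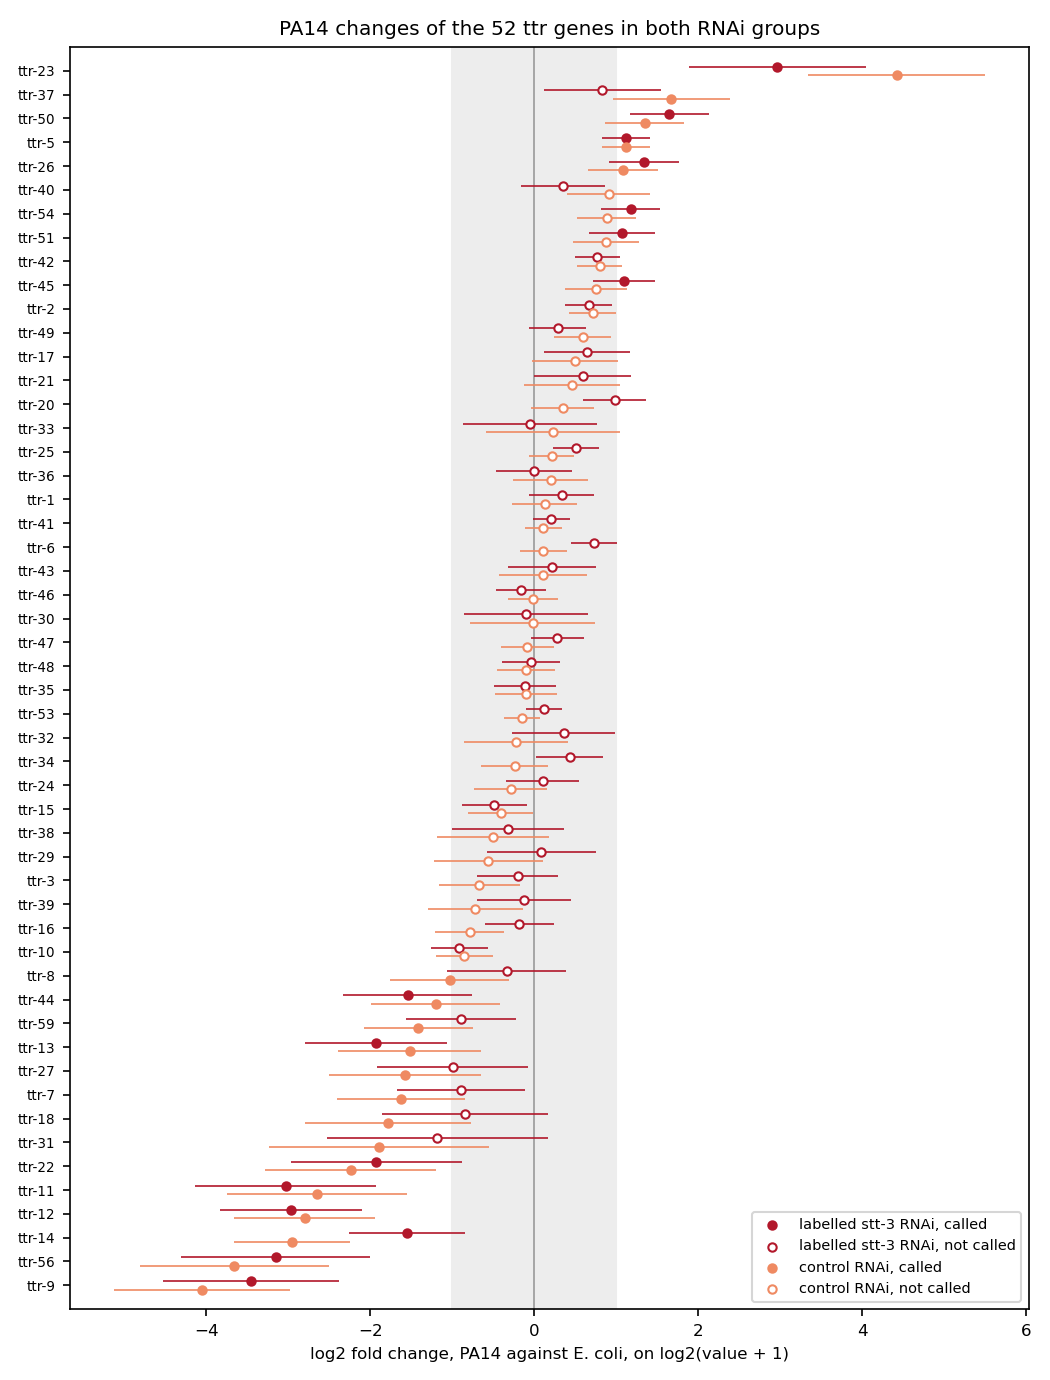
Log2 fold change of the 52 ttr genes on PA14 against E. coli, in labelled libraries (upper point of each pair) and in control RNAi (lower point), with lines for the 95% confidence interval of limma, filled points for genes called and grey shading for changes within 2-fold. Changes in control RNAi run between 4.42 for ttr-23 and -4.05 for ttr-9, and 4 genes above the shading and 8 below it were called in both RNAi groups.

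The increase of ttr-23 (WBGene00011894, chromosome V from 10589092 to 10589860) was the largest of the family. Its values were 441, 212 and 283 on PA14 and 9, 20 and 12 on E. coli. All PA14 libraries thus stood more than 10 times above all E. coli libraries, and the change was 4.42 on the log2 scale (limma, standard error 0.49, BH-adjusted p = 6.23e-05), or 21.4-fold.

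The other increases were 3.19-fold or less. The value of ttr-37 (WBGene00017667, chromosome X from 1335364 to 1337175) was 259, 132 and 158 on PA14 and 41, 75 and 52 on E. coli (log2 change 1.67, limma, standard error 0.32, BH-adjusted p = 0.00138). That of ttr-50 (WBGene00010234, chromosome IV from 11640047 to 11641015) was 410, 490 and 464 on PA14 and 212, 134 and 198 on E. coli (log2 change 1.35, limma, BH-adjusted p = 0.000454). In both genes the lowest PA14 library was well above the highest E. coli library.

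For ttr-5 (WBGene00008040, chromosome III from 9330316 to 9330928) the values were 719, 564 and 681 on PA14 and 267, 339 and 294 on E. coli (log2 change 1.12, limma, BH-adjusted p = 7.49e-05). For ttr-26 (WBGene00013079, chromosome V from 18558758 to 18560288) they were 172, 119 and 128 on PA14 and 51, 75 and 70 on E. coli (log2 change 1.08, limma, BH-adjusted p = 0.000797). Neither gene's groups overlapped, and both changes lay close to the 2-fold limit. The call of ttr-26 was lost without replicate 1 of control RNAi on either bacterium. A further 7 members, among them the abundant ttr-51 and ttr-2, passed the adjusted p below that limit, with log2 changes of 0.88 and 0.71 for these 2.

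By log2 change, ttr-9 and ttr-56 fell most. The value of ttr-9 (WBGene00007888, chromosome IV from 9505543 to 9506351) was 0, 2 and 2 on PA14 and 27, 60 and 23 on E. coli, a log2 change of -4.05 (limma, standard error 0.49, BH-adjusted p = 8.04e-05) or 16.6-fold lower. That of ttr-56 (WBGene00050896, chromosome I) was 0, 1 and 2 on PA14 and 19, 42 and 13 on E. coli, a log2 change of -3.66 (limma, BH-adjusted p = 0.000206). Both genes were at or near 0 in every PA14 library, so that these fold changes depend on the pseudocount of 1 (a pseudocount of 5 gave a log2 change of -2.63 for ttr-9), and replicate 2 was the highest E. coli library for both.

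The value of ttr-14 (WBGene00011460, chromosome X from 10787503 to 10789700), a gene of moderate level on E. coli, was 35, 50 and 40 on PA14 and 284, 542 and 223 on E. coli. Its log2 change was -2.95 (limma, standard error 0.32, BH-adjusted p = 5.95e-05), or 7.72-fold lower. The genes ttr-12 (WBGene00009759, chromosome V from 20607777 to 20608788) and ttr-11 (WBGene00009758, chromosome V from 20603314 to 20604428) are neighbours, with ttr-57 between them. Values of ttr-12 were 7, 11 and 12 on PA14 and 58, 136 and 51 on E. coli (log2 change -2.80, limma, BH-adjusted p = 0.000182). Values of ttr-11 were 0, 0 and 1 on PA14 and 4, 13 and 6 on E. coli (log2 change -2.65, limma, BH-adjusted p = 0.00117). The PA14 libraries were lower throughout in these 3 genes, and ttr-11 was low everywhere.

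The last of the 6 largest decreases was that of ttr-22 (WBGene00011450, chromosome V from 12241426 to 12241945), with 3, 4 and 1 on PA14 and 14, 27 and 9 on E. coli (log2 change -2.24, limma, BH-adjusted p = 0.00242). The other 8 had log2 changes between -1.89 for ttr-31 and -1.03 for ttr-8. The call of ttr-8 was lost in 7 of 24 alternatives run, among them a pseudocount of 5, quantile normalization and the fits without replicate 2 or 3 of control RNAi on PA14. Those of ttr-31 and ttr-44 were lost in 4 and 3 of 24, and that of ttr-13 in 3 of 23. When replicate 2 of the control RNAi E. coli libraries was left out, 11 members fell and 7 rose.

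The gene ttr-33 (WBGene00016505, chromosome V from 7837093 to 7837909) did not pass the test. Its values were 62, 24 and 36 on PA14 and 22, 38 and 39 on E. coli, and its log2 change was 0.23 with a 95% confidence interval of -0.58 to 1.05 (limma, BH-adjusted p = 0.627). The groups overlapped, and the interval includes a 2-fold increase.

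**Figure D3:**
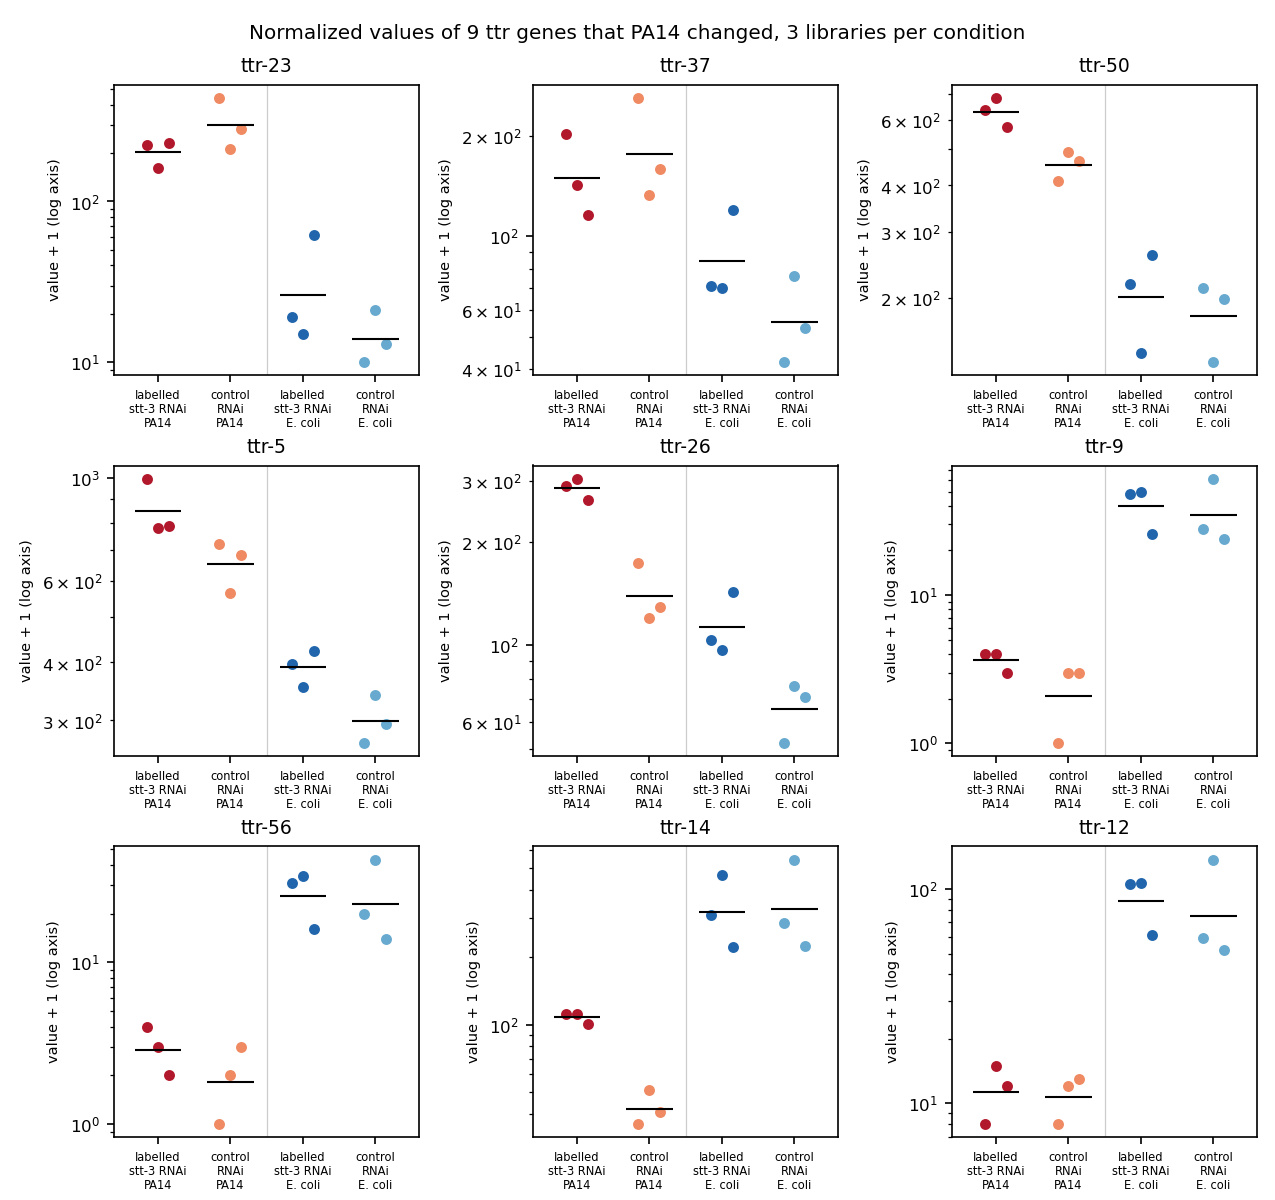
Normalized value plus 1 (log axis) of 9 ttr genes called on PA14 in control RNAi, with a point for each of the 3 libraries of a condition and a bar at their mean on the log scale. The PA14 conditions stand left and the E. coli conditions right in each panel, and in control RNAi the 2 bacteria do not overlap for any of the 9 genes, from 212 or more against 20 at most for ttr-23 to 2 at most against 23 or more for ttr-9.

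Markers of other tissues moved with PA14 in the same libraries. The summed values of 30 msp genes, which encode major sperm proteins, were 7396 to 11292 in the labelled libraries and 4700 to 11244 in control RNAi on PA14. On E. coli they were 76864 to 133292 in the labelled libraries and 68281 to 168502 in control RNAi. All 30 fell on PA14 in either RNAi group, and none was at 0 in all libraries of a condition. The col genes, which encode cuticle collagens, summed to 80306 to 112910 on PA14 and 620959 to 937570 on E. coli in control RNAi, and 90 of the 114 tested fell.

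The library with the highest values of ttr-9, ttr-56, ttr-14, ttr-12, ttr-11 and ttr-22, replicate 2 of control RNAi on E. coli, also had the highest sum of msp genes (168502) and of col genes (937570). The part of sperm and cuticle RNA in the ttr results was not tested. A set of 7 neuronal genes summed to 1660 to 1892 on PA14 and 1236 to 1308 on E. coli in control RNAi. Most of this sum was snb-1, at 1356 to 1523 on PA14 and 1082 to 1115 on E. coli. Of the 5 tested, 2 rose, ric-19 and unc-64. The log2 change was 0.38 for snb-1, 0.11 for rab-3 and -1.01 for egl-3 (limma, BH-adjusted p = 0.0518 for egl-3), so that the set did not move as one. Markers of glia (5 of 6 listed) summed to 24 to 80 in any library and those of coelomocytes (3 of 3 listed), the scavenger cells of the body cavity, to 37 to 71. In bulk RNA of whole worms, fewer cells of a type and less RNA per cell cannot be told apart.

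PA14 was then compared with E. coli among the labelled libraries, which share no library with the control RNAi comparison. Here 7 members rose and 8 fell (limma, more than 2-fold, BH-adjusted p under 0.05), that is 13.5% and 15.4%, against 8.30% and 14.0% of all genes. The genes that rose were ttr-23, ttr-50, ttr-26, ttr-54, ttr-5, ttr-45 and ttr-51, and those that fell were ttr-9, ttr-56, ttr-11, ttr-12, ttr-13, ttr-22, ttr-14 and ttr-44. Among the 47 members that reached 10 on both bacteria, 7 rose (14.9%, against 6.8% of such genes) and 3 fell (6.38%, against 8.97%). When replicate 3 of the labelled E. coli libraries was left out, 13 members fell, with ttr-7, ttr-10, ttr-27, ttr-31 and ttr-59 added. Without both of the E. coli libraries that lay apart the same 13 fell and 8 rose, with ttr-37 added (log2 change 1.08, limma, BH-adjusted p = 0.0148). At any fold change, 13 members rose and 11 fell (limma, BH-adjusted p under 0.05), against 23.1% and 20.6% of all genes. All PA14 libraries were above all E. coli libraries for 14 members (29.2% of all genes) and below them for 9 (23.0% of all genes). In the library left out the msp genes summed to 76864 and the col genes to 332619, the lowest of its group.

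The values of ttr-23 were 225, 160 and 229 on PA14 and 18, 14 and 61 on E. coli in the labelled libraries, a log2 change of 2.96 (limma, standard error 0.49, BH-adjusted p = 0.000694). The E. coli library at 61 was the same replicate 3. Those of ttr-50 were 636, 685 and 572 on PA14 and 217, 142 and 260 on E. coli, a log2 change of 1.65 (limma, BH-adjusted p = 0.000204). Both genes thus rose in either RNAi group without overlap.

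The values of ttr-9 were 3, 3 and 2 on PA14 and 47, 49 and 25 on E. coli in the labelled libraries, a log2 change of -3.45 (limma, BH-adjusted p = 0.000284). Those of ttr-14 were 111, 110 and 100 on PA14 and 307, 465 and 221 on E. coli, a log2 change of -1.56 (limma, standard error 0.32, BH-adjusted p = 0.00273). The decrease of ttr-14 was 2.94-fold, and the PA14 libraries agreed closely with each other.

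In the labelled libraries ttr-12 had 7, 14 and 11 on PA14 and 104, 106 and 60 on E. coli (log2 change -2.96, limma, BH-adjusted p = 0.000201). Its neighbour ttr-11 had 1, 0 and 0 on PA14 and 11, 12 and 6 on E. coli (log2 change -3.03, limma, BH-adjusted p = 0.000678). The value of ttr-44 was 77, 84 and 67 on PA14 and 111, 250 and 396 on E. coli (log2 change -1.54, limma, BH-adjusted p = 0.00504). The 3 genes were lower in every PA14 library, and ttr-44 varied most among its E. coli libraries. The genes ttr-45, ttr-54 and ttr-51 passed the 2-fold limit here at log2 changes of 1.09, 1.18 and 1.07, and lay just below it in control RNAi at 0.76, 0.88 and 0.88.

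Of the members called higher, 4 were called in either RNAi group, which is 80% of those in control RNAi and 57.1% of those in the labelled libraries. Of those called lower, 8 were shared, which is 57.1% of the 14 in control RNAi and 100% of the 8 in the labelled libraries. The 5 genes that reached 10 on E. coli alone are among these 8. Across the 52 members the PA14 changes in the 2 RNAi groups had a correlation of 0.95 (0.91 across all genes), and 44 had the same sign. The same 5 genes, whose decrease the minimum value favoured in both groups, are part of this correlation and this count. The share of all genes with the same sign was not computed. The difference between the 2 PA14 changes (interaction) was past the thresholds for no member in either direction (limma), against 0.232% of all genes higher and 1.18% lower. None passed at any fold change either, against 0.418% and 1.24% of all genes. An unadjusted p under 0.05 was found for 5 members (12.7% of all genes), of which ttr-6 had the smallest (difference 0.62 on the log2 scale, limma, standard error 0.18, BH-adjusted p = 0.141). The differences lay between -1.46 for ttr-23 and 1.39 for ttr-14, with a median of 0.23 (0.05 for all genes). That a gene was called in control RNAi alone, as ttr-18, ttr-7 or ttr-37 was, is therefore not shown to be a difference between the RNAi groups.

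The next comparison set the labelled libraries against those of control RNAi on E. coli. No member passed both thresholds in either direction (limma), against 1.98% of all genes higher and 1.23% lower. At an unadjusted p under 0.05 there were 8 members (20.5% of all genes), and at a BH-adjusted p under 0.05 of any fold change there were 2, ttr-26 (higher) and ttr-42 (lower), against 3.10% and 3.32% of all genes. All labelled libraries were above all control RNAi libraries for 3 members (8.99% of all genes) and below them for 3 (12.9% of all genes). The labelled libraries had 103, 96 and 142 for ttr-26, against 51, 75 and 70 in control RNAi (log2 change 0.79, limma, standard error 0.19, BH-adjusted p = 0.0359). They had 457, 444 and 454 for ttr-42 (WBGene00045268, chromosome X from 2577742 to 2578262), against 690, 673 and 689 in control RNAi (log2 change -0.60, limma, standard error 0.13, BH-adjusted p = 0.0184). In neither gene did the groups overlap, and the spread of ttr-42 within each group was small. The median log2 change of the members was 0.04, against 0.02 for all genes. With replicate 3 of the labelled libraries left out, ttr-44 was called lower (log2 change -1.22, limma, BH-adjusted p = 0.04).

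On PA14, 2 members, ttr-14 and ttr-26, were higher in the labelled libraries than in control RNAi by both thresholds and none was lower (limma), against 1.97% and 3.34% of all genes. At an unadjusted p under 0.05 there were 18 members (22.0% of all genes). Without the 2 E. coli libraries that lay apart, 3 were higher, with ttr-7 added (log2 change 1.20, limma, BH-adjusted p = 0.00752), and 1 was lower (ttr-44, log2 change -1.15, limma, BH-adjusted p = 0.0203). At a BH-adjusted p under 0.05 of any fold, 6 were higher and 1 lower, against 4.72% and 5.76% of all genes. The members' median log2 change was 0.27, against 0.05 for all genes, with 36 members above 0 and 16 below. The median log2 value of the members also varied between libraries of a condition, with a pooled SD of 0.27. The share of all genes above 0 was not computed. All labelled libraries were above all control RNAi libraries for 17 members, against 16.7% of all genes, and below them for 4, against 14.0%.

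The values of ttr-14 were 111, 110 and 100 in the labelled libraries and 35, 50 and 40 in control RNAi on PA14, a log2 change of 1.35 (limma, standard error 0.32, BH-adjusted p = 0.0211) or 2.56-fold higher. On E. coli they were 307, 465 and 221 in the labelled libraries and 284, 542 and 223 in control RNAi, with a log2 change of -0.04 and a 95% confidence interval of -0.75 to 0.67. The groups were far apart on PA14 and overlapped on E. coli, and the difference between these changes (1.39, standard error 0.45) had an adjusted p of 0.189 (limma). The call of ttr-14 was lost without any one of 5 PA14 libraries, the exception being replicate 2 of control RNAi, while its log2 change stayed between 1.24 and 1.49 in the alternatives run.

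The gene ttr-26 had 289, 304 and 263 in the labelled libraries and 172, 119 and 128 in control RNAi on PA14, a log2 change of 1.04 (limma, standard error 0.19, BH-adjusted p = 0.00558). It was thus higher in the labelled libraries on either bacterium and higher on PA14 in either RNAi group. Its call here rests on a change at the 2-fold limit and was lost without replicate 2 or 3 of control RNAi or replicate 2 of the labelled libraries on PA14, as its log2 change lay between 0.94 and 1.20 in the alternatives run.

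**Figure D4:**
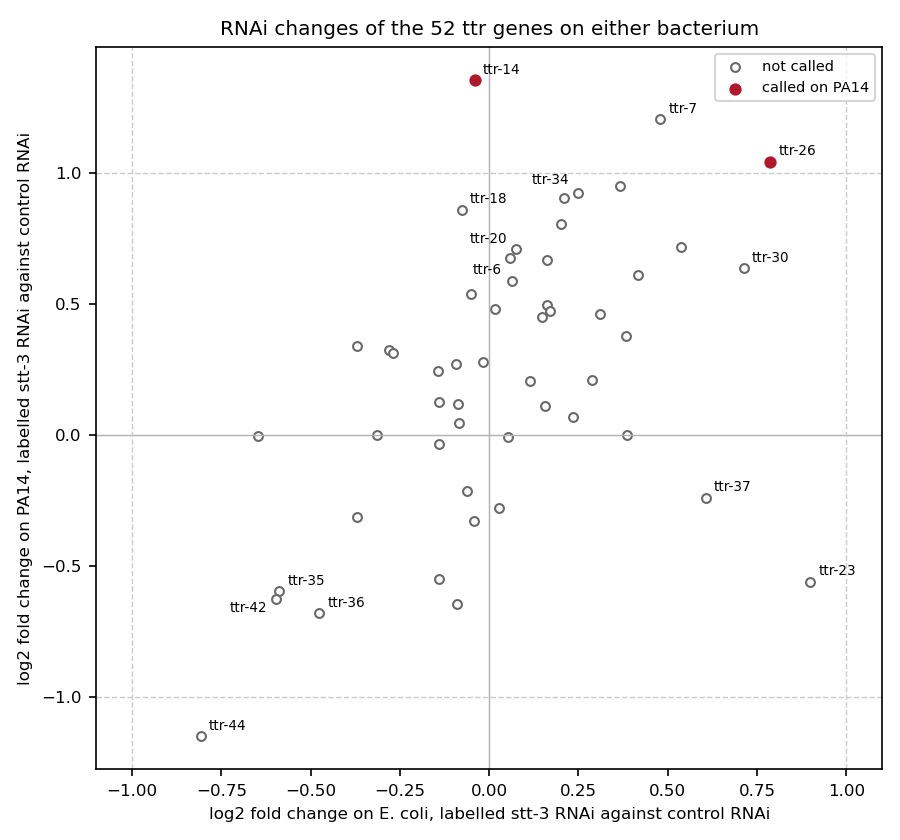
Log2 fold change of the 52 ttr genes in the labelled over the control RNAi libraries, on E. coli (x axis) and on PA14 (y axis), with dashed lines at 2-fold and filled points for the 2 genes called on PA14. Most points lie above 0 on PA14 (36 of 52), and no point passes 2-fold on E. coli.

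The 4 other members with an adjusted p under 0.05 that were higher on PA14 had smaller changes. Values of ttr-34 were 634, 511 and 524 in the labelled libraries and 305, 261 and 311 in control RNAi (log2 change 0.92, limma, BH-adjusted p = 0.00891). Values of ttr-6 were 1316, 1065 and 984 in the labelled libraries and 767, 719 and 612 in control RNAi (log2 change 0.68, limma, BH-adjusted p = 0.00673). The groups did not overlap in either gene on PA14, and for both genes the groups overlapped on E. coli. The others were ttr-20 and ttr-25, with log2 changes of 0.71 and 0.45.

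The gene that was lower was ttr-42, with 868, 747 and 704 in the labelled libraries and 1424, 963 and 1226 in control RNAi on PA14 (log2 change -0.63, limma, BH-adjusted p = 0.00879). Its RNAi change was nearly the same size on either bacterium, and the difference between the 2 was -0.03 (95% confidence interval -0.42 to 0.36). PA14 raised ttr-42 by 0.77 on the log2 scale in the labelled libraries and by 0.80 in control RNAi. The neighbours ttr-35 and ttr-36 on the X chromosome were also below control RNAi in every labelled library on PA14, with log2 changes of -0.60 and -0.68 that did not pass (limma, BH-adjusted p = 0.0507 and 0.0659).

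The genes ttr-7 and ttr-44 moved by more than 2-fold without passing the adjusted p. Values of ttr-7 were 74, 53 and 39 in the labelled libraries and 27, 24 and 18 in control RNAi on PA14 (log2 change 1.20, limma, BH-adjusted p = 0.0556). The replicate numbers were taken to pair the libraries of this comparison, from correlations in these same data. The p values given above for this comparison are from the fit without this pairing. With the replicate number as a block ttr-7 was called too (limma, BH-adjusted p = 0.0146), which makes 3 members higher. In the fit with the block, ttr-14 and ttr-26 had a BH-adjusted p of 0.00371 and 0.012 (limma). That fit used all 12 libraries and gave the E. coli groups the same replicate effect, so that it is not a paired test of the PA14 groups alone. Values of ttr-44 were 77, 84 and 67 in the labelled libraries and 189, 176 and 145 in control RNAi on PA14 (log2 change -1.15, limma, BH-adjusted p = 0.068). Its PA14 groups were well apart, while its labelled libraries on E. coli, at 111, 250 and 396, spread over more than 3-fold, and it passed when the groups on PA14 were fitted alone (limma, BH-adjusted p = 0.00355).

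**Figure D5:**
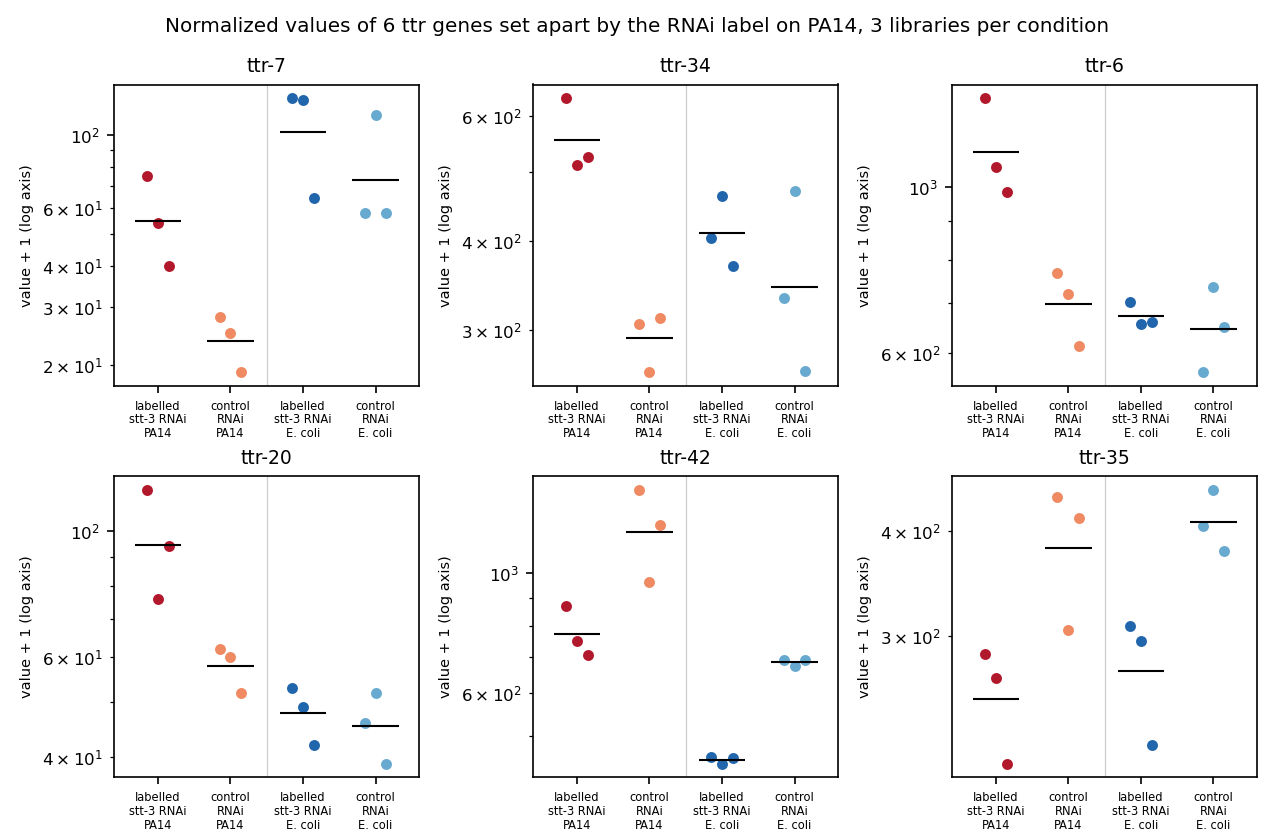
Normalized value plus 1 (log axis) of 6 ttr genes whose labelled and control RNAi libraries did not overlap on PA14, with a point for each of the 3 libraries of a condition and a bar at their mean on the log scale. On PA14 ttr-7, ttr-34, ttr-6 and ttr-20 are higher in the labelled libraries and ttr-42 and ttr-35 lower, and on E. coli only ttr-42 and ttr-35 of the 6 stay apart, as with 457 at most against 673 or more for ttr-42. The 6 were picked from 17 higher and 4 lower members without overlap on PA14, and do not stand for them. Among those not shown, ttr-5, ttr-26 and ttr-51 were higher without overlap on both bacteria. Not shown either are ttr-36 and ttr-44, which were lower on PA14 and overlapped on E. coli.

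The changes of some members were bounded. For 13 of the 52, ttr-1, ttr-2, ttr-15, ttr-24, ttr-25, ttr-35, ttr-41, ttr-43, ttr-46, ttr-47, ttr-48, ttr-49 and ttr-53, the 95% confidence interval of the log2 change lay within 2-fold in all 4 comparisons of RNAi label or bacterium (limma). Of these, ttr-2, ttr-15, ttr-25 and ttr-49 passed the adjusted p in at least 1 comparison, with log2 changes no larger than 0.71 in size. Another, ttr-41, had 2146, 1962 and 1754 in the labelled libraries on PA14 and 1826, 1591 and 1653 in control RNAi on PA14. On E. coli it had 1628, 1670 and 1772 in the labelled libraries and 1411, 1773 and 1522 in control RNAi. Its RNAi groups overlapped on either bacterium, and its PA14 changes were 0.21 in the labelled libraries and 0.11 in control RNAi. By bacterium, 17 members had intervals within 2-fold in both RNAi groups, and by RNAi label 24 had them on both bacteria. Some others, such as ttr-30, ttr-32 and ttr-38, were called in no comparison and had an interval that reached beyond 2-fold in at least 1.

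Another tissue marker set moved with the RNAi label on PA14. The 6 vitellogenin genes, which encode the yolk proteins made by the adult intestine, summed to 34759 to 41691 in the labelled libraries and 96693 to 140199 in control RNAi on PA14, and 5 of them fell. On E. coli they summed to 50322 to 56969 in the labelled libraries and 74575 to 95569 in control RNAi, and 3 fell. The sums of the msp genes, which encode the major sperm proteins, overlapped on PA14, at 7396 to 11292 in the labelled libraries and 4700 to 11244 in control RNAi. Those of the col genes, which encode cuticle collagens, were 113021 to 139269 in the labelled libraries and 80306 to 112910 in control RNAi on PA14, higher in every labelled library, while 0 of the 114 col genes tested rose and 2 fell (median log2 change 0.06). The part of these in the ttr results was not tested.

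The genes by which phosphatidylserine is exposed and dying cells are engulfed, the pathway in which TTR-52 acts, formed a list of 20. Of these 19 were tested, and 0 passed both thresholds in any of the 5 comparisons (limma), where 10.7% of all genes rose and 15.9% fell on PA14 in control RNAi. At any fold change 4 rose and 2 fell there (limma, BH-adjusted p under 0.05), against 25.8% of all genes in either direction. In control RNAi the largest change on PA14 was that of nrf-5, which encodes a secreted lipid-binding protein that acts with TTR-52, at -0.83 (limma, BH-adjusted p = 0.00194). The receptor gene ced-1 had a log2 change of 0.66 there (limma, BH-adjusted p = 0.0383), with 71, 88 and 104 on PA14 and 56, 41 and 70 on E. coli. All of these PA14 values were above these E. coli values, by 71 against 70 at the closest. With the stt-3 RNAi label the values of ced-1 overlapped, at 68, 88 and 90 on PA14 and 50, 52 and 81 on E. coli. Neither ced-1 nor nrf-5 passed there, with log2 changes of 0.44 and -0.16 (limma, BH-adjusted p = 0.158 and 0.483). Other genes of the list did at any fold change, with 4 higher (ced-6, ced-8, psr-1 and rab-5) and 1 lower (wah-1), against 23.1% and 20.6% of all genes. The difference between the 2 PA14 changes was -0.22 for ced-1 and 0.67 for nrf-5 (limma, BH-adjusted p = 0.899 and 0.241). A difference between the RNAi groups is thus not shown for either gene. The list's median log2 change on PA14 was 0.20 in control RNAi, against 0.04 for all genes.

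Position in the genome was compared with the PA14 changes in control RNAi. With gaps of under 5000 bases between neighbours, 29 of the listed ttr genes formed 12 groups, which held 25 of the members and 7 of the 19 called. One group, with ttr-11 and ttr-12, held more than 1 called gene, and no group held genes called both ways. Adjacent members often differed. In the group of ttr-3, ttr-2 and ttr-1 on chromosome III the log2 changes were -0.67, 0.71 and 0.13. Those of ttr-24, ttr-25 and ttr-26 on chromosome V were -0.28, 0.21 and 1.08, while ttr-51 and ttr-45 on chromosome IV had 0.88 and 0.76. This is a description, since neighbouring copies can also share reads.

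Exons of 15 members shared bases with another protein-coding gene, and no source used here says whether strand was used in counting, so that reads there could be assigned to either. For ttr-14 this was vap-2 on the opposite strand, over 90 of its 1415 exon bases (6.4%). On PA14 the values of vap-2 were 14, 26 and 44 in the labelled libraries and 10, 30 and 28 in control RNAi. On E. coli they were 65, 101 and 107 in the labelled libraries and 56, 214 and 101 in control RNAi. It thus also fell on PA14, and its log2 change between the labelled and control RNAi libraries on PA14 was 0.29 (limma, BH-adjusted p = 0.82). For ttr-44, R11G10.3 covered 25.0% of the exon bases and had values of 6 or less. For ttr-16, lin-3 covered 40.7% and had values of 64 to 88, against 2702 to 6574 for ttr-16. No such gene overlapped ttr-23, ttr-26 or ttr-9.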

How the data were processed

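The authors aligned the reads to WBcel235 with HISAT2 2.0.5, quantified genes with StringTie 1.3.3b and Ballgown, applied upper-quartile normalization and RUVSeq, and deposited rounded values, which are treated as a score although the column is headed count. The use of strand and the depth are not given in the sources used here. Because the values are not counts, log2(value + 1) was fitted with limma 3.58.1 (R 4.3.3, mean-variance trend) on all 12 libraries with 1 mean per condition. The genes tested had values of 10 or more in 3 or more libraries, p values were BH-adjusted over 12908 genes, and genes were called at over 2-fold and an adjusted p under 0.05, the thresholds of the study. Changes on this scale are understated for genes of low value. The script was tested on simulated data.

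Symbols were matched for 16626 of 17430 genes (804 unmatched), and coordinates and exon lengths are from the WBcel235 annotation. Any ttr gene could be named. Values of each library were given for members called by the RNAi label, for the 6 largest decreases and the increases among members called on PA14 in control RNAi (the limit was 6 and 5 were called), the 3 of highest value per exon length, and ttr-52, ttr-11 and ttr-33. Other genes given with values were chosen after these were seen. The members, lists and tests were chosen with earlier results of these data known.

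The deviations of equal-numbered libraries from their condition means correlated at 0.53, 0.26 and 0.39 between the labelled and control RNAi libraries on PA14, so that the numbers were taken to pair these. No 2 libraries were identical, and the highest correlation between libraries was 0.988. Alternatives were other filters, pseudocounts and scalings, no trend, a replicate block, only the groups compared, other thresholds, and leaving out each library.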

Additional observations from a re-analysis of the deposited data

How the results depend on the processing

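No member changed direction among calls in any alternative run. A test against the 2-fold limit itself (limma's treat) left 0 members higher for the RNAi label on PA14, 1 higher and 5 lower for PA14 in control RNAi, and 1 higher and 4 lower for PA14 in the labelled libraries. With the adjusted p alone, the RNAi label had 1 higher and 1 lower on E. coli and 6 higher and 1 lower on PA14, and PA14 had 12 higher in control RNAi and 13 higher in the labelled libraries. A mean value of at least 50 kept 39 members, so that PA14 had 7 lower in control RNAi and 2 lower in the labelled libraries. Quantile normalization gave 4 higher for the RNAi label on PA14, and fitting only the groups compared gave 1 lower (ttr-44) and 3 higher. Without replicate 3 of the labelled and replicate 2 of the control RNAi libraries on E. coli, chosen after seeing the data, there were 3 higher and 1 lower for the RNAi label on PA14, 8 higher and 13 lower for PA14 in the labelled libraries, and 7 higher and 13 lower for PA14 in control RNAi. The replicate block gave 3 higher for the RNAi label on PA14 and 9 lower for PA14 in the labelled libraries (ttr-31 added) and changed no other count. For the other comparisons the numbers were not taken to pair the libraries. Correlations of equal-numbered libraries were 0.02, 0.37 and 0.46 between the RNAi groups on E. coli. Between the bacteria they were 0.24, -0.07 and 0.19 in the labelled libraries and 0.06, 0.18 and 0.12 in control RNAi. Those of control RNAi were all above the highest correlation of unequal-numbered libraries (0.05), so that pairing there is not settled. Leaving out those 2 E. coli libraries kept the log2 changes of ttr-7 and ttr-44 for the RNAi label on PA14 at 1.20 and -1.15. Only their p values moved, as all groups share 1 estimate of the spread. The causes of the other moves were not tested, beyond the fewer genes or libraries that the settings use.

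Leaving out 1 library at a time, the RNAi label had 0 to 0 members higher and 0 to 1 lower on E. coli (median -0.06 to 0.16), and 0 to 3 higher and 0 to 1 lower on PA14 (median 0.14 to 0.37). PA14 had 4 to 7 higher and 11 to 14 lower in control RNAi (median -0.20 to 0.01), and 5 to 8 higher and 8 to 13 lower in the labelled libraries (median -0.11 to 0.19). The interaction had 0 to 0 in either direction (median 0.07 to 0.32). In control RNAi the PA14 calls of ttr-14 and ttr-23 were lost in no alternative run, and those of ttr-9, ttr-11, ttr-12 and ttr-56 in none that tested them (a mean of at least 50 removed them). Of these, ttr-9, ttr-11 and ttr-56 reached the minimum value on E. coli alone, which favoured their decrease. That their calls were kept, under limma's treat too, has to be read with that limit. The 3 libraries per condition and the unknown depth limit what can be said of genes with values near 0.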
